A study of Mus musculus with 6 samples.

Results

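The cytosolic ribosomal protein family was followed in 6 primary cultures of mouse cerebral cortex, 3 control and 3 irradiated. Members were the array features that carry no control mark and whose gene name is Rpsa or begins with Rpl, Rps or Rplp followed by a number, without the Rps6k kinases and without names marked as pseudogenes. This rule found 87 of the 37074 gene names and 186 of the 56605 probes on the array. By name, 46 genes belong to the large subunit, 30 to the small subunit and 9 are paralogs, whose names end in l or carry a further number. The other 2 are Rps19bp1, a protein that binds Rps19, and Rpl37rt, a retroposed copy of Rpl37. One of the 9, Rps3a1, is a paralog by its name alone, since it is the mouse gene for the Rps3a protein. Kept probes are those marked well above background by the scanner software on 3 or more of the 6 arrays, which left 182 probes of 86 genes. Rpl10l, the remaining gene, was called so on 1 control and 1 irradiated array, so no fold is given for it.

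All 6 cultures came from the cortices of C57/B6 embryos at embryonic day 16, plated in Neurobasal medium with B27 plus and collected on day 12 in vitro. The irradiated cultures received terahertz radiation, a band between microwaves and infrared, at 3.1 THz once daily for 3 hours between days 5 and 9 in vitro. The controls are described as control culture, and a sham exposure is not mentioned in the labels. From each culture 0.2 µg of RNA was labelled with Cy3 and hybridised to its own 1-colour Agilent array of probes 60 bases long. The labels name the cells a neuron culture and do not state whether each numbered culture had its own dissection. The p-values thus cover only the spread among these samples, and that spread may be technical.

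Ribosomal proteins coat the ribosomal RNA of the small subunit, which reads the messenger RNA, and of the large subunit, which joins the amino acids. Cells make them in matched amounts, and their messengers are among the most abundant in growing and resting cells alike. Many of these messengers begin with a run of pyrimidines, the 5′ terminal oligopyrimidine tract, through which mTOR signalling sets how actively they are translated. In neurons part of this pool travels into axons and dendrites, where it serves local protein synthesis.

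Levels are given as log2 processed signal minus the array's 75th percentile, so that 0 is the 75th percentile of that array. Differences are irradiated minus control on this scale, and each difference was also read after quantile normalization, which gives all arrays the same distribution of values. The 75th percentile signal itself ranged from 320 to 892 over the arrays, and 64.9% to 74.7% of spots were well above background, control 1 being lowest in both. No spot was saturated. Of the 300 probes that the array prints in 10 spots, 65 are members. For these the median SD between spots of one array lay between 0.013 and 0.023, against a median SD of 0.21 between arrays of a group. The latter may be technical.

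No ribosomal protein probe passed the adjusted threshold. In limma's test with Benjamini-Hochberg adjustment over 40552 probes, 0 probes reached an adjusted p under 0.05 (percent called 0), and the smallest adjusted p, shared by members, was 0.52. The family nevertheless lay to one side. Of the 182 member probes, 162 had a difference below 0, beside 55.9% of all probes, and their median difference was -0.38, beside -0.05 over all probes. At an unadjusted p under 0.05, 13 member probes were lower in the irradiated cultures, beside 4.99% of all probes, and 2 were higher, beside 4.02%. Signals of all irradiated arrays lay below all control arrays for 60 member probes, beside 9.71% of all probes, and above them for 3, beside 5.77%. The 2 higher probes belong to Rpl13 and Rps19 and are dim. The Rps19 probe, also among the 3 above, was well above background on 0 control arrays and passed the filter through the irradiated arrays, where it is high. The count of 13 was 59 without control 3 and 41 without irradiated 3, and 0 without any other of the 6 arrays.

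Quantile normalization took this offset away. It gives all arrays the same distribution, so it takes out a shift shared by most of the brightest probes whatever its source. After it, the median difference of the 182 member probes was -0.03, beside 0.00022 over all probes, and 58.8% of them lay below 0, beside 20267 of the 40552 probes in all. None was lower at an unadjusted p under 0.05, beside 5.07% of all probes, and 3 were higher, beside 4.06%. The arrays of the groups did not overlap for 11 member probes in the lower direction, beside 8.24% of all probes, and for 10 in the higher, beside 6.48%. Under this normalization 4 probes of the whole array passed an adjusted p of 0.05 in limma's test (percent called 0.00986), for AK045452, Birc6, Adam23 and Gm20783, named here after their values were seen, and none is a member. Without any 1 of the 6 arrays 0 probes passed. The deposited log2 table gave the same member median, -0.03.

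With each gene represented by its brightest kept probe, the median level of the 86 genes was 6.81 on control 1, 6.76 on control 2 and 6.44 on control 3. It was 6.12 on irradiated 1, 6.13 on irradiated 2 and 6.46 on irradiated 3. Irradiated 1 and 2 were thus the low arrays and control 1 and 2 the high ones, while control 3 and irradiated 3 were alike in the middle. The median difference between irradiated 3 and control 3 was 0.0046, with 45 genes higher in irradiated 3. For the arrays numbered 1 it was -0.65, with 79 of 86 genes lower in the irradiated array, and for those numbered 2 it was -0.60, with 82 lower. After quantile normalization the median deviation of the genes from their own mean lay between -0.05 and 0.02 on all 6 arrays. The family's median signal stood above 98.7% to 98.8% of the kept probes on every array.

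**Figure D1:**
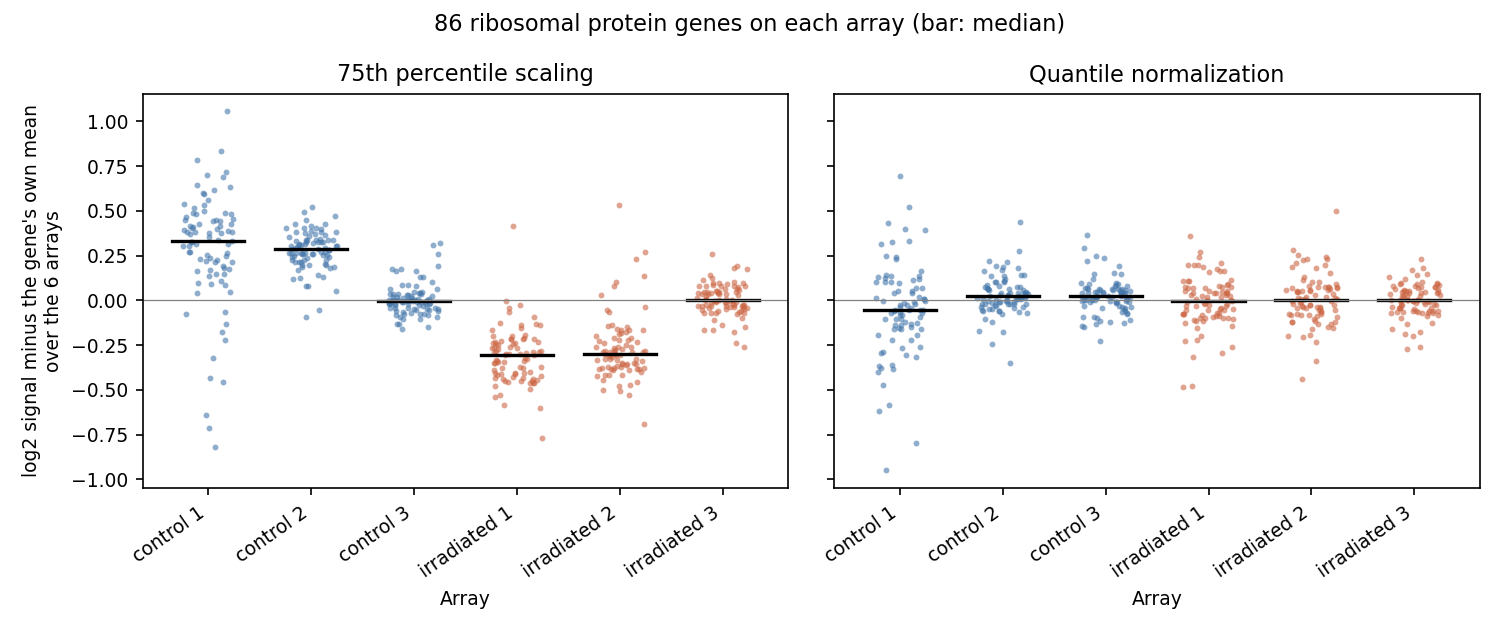
Each point is 1 of 86 ribosomal protein genes, as log2 signal on that array minus the gene's own mean over the 6 arrays (vertical axis), for each of the 6 arrays (horizontal axis) under both normalizations, with bars at the median. On the left the medians run from 0.33 on control 1 to -0.31 on irradiated 1, and on the right all 6 lie between -0.05 and 0.02, with the widest scatter on control 1.

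The offset ran with the brightness of the probe. Of the 182 member probes, 143, or 78.6%, lay among the brightest 5% of kept probes. The other 1885 probes of that brightest class, which belong to other genes, had a median difference of -0.31, with 1770 below 0, and the 143 members among them had -0.41. After quantile normalization these medians were 0.01 and -0.03. The arrays of the groups did not overlap in the lower direction for 436 of the 1885 other bright probes and for 52 of the 143 bright members, beside 9.71% of all probes. The 18 member probes whose signal lay below the 75th percentile had a median difference of 0.12, with 5 below 0. The distance between the median and the 95th percentile of all kept probes also differed by array. On the log2 scale it was 6.30 to 6.46 in the controls and 5.95 to 6.25 in the irradiated cultures, and its part in the family's difference was not tested.

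**Figure D2:**
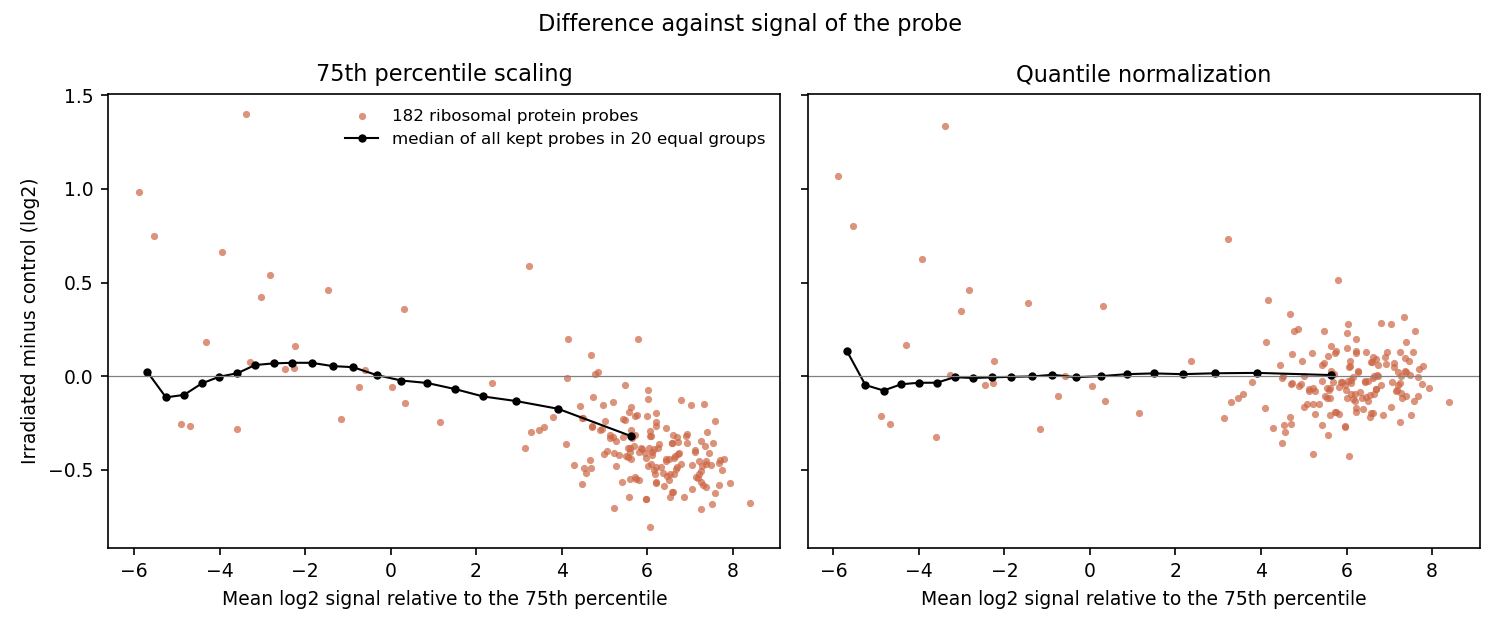
Irradiated minus control difference (vertical axis, log2) against mean log2 signal relative to the 75th percentile (horizontal axis), for 182 ribosomal protein probes (points) and the medians of all kept probes in 20 equal groups by signal (line). On the left the line descends to -0.32 in the brightest group, which holds 143 of the member probes, and on the right it is at 0.0056 there.

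The 46 large subunit genes had a median difference of -0.41, with 44 below 0, which became 0.01 after quantile normalization. The 30 small subunit genes had -0.45, with all 30 below 0, which became -0.02. The medians lay closer to each other than the genes of either subunit, whose differences ran from -0.68 to 0.07 in the large subunit and from -0.81 to -0.15 in the small. After quantile normalization 21 large and 17 small subunit genes lay below 0. The 8 kept paralogs differed by a median of -0.26, with 5 below 0, and by 0.06 after quantile normalization. Over single arrays left out their median ran from -0.29 to -0.11. Leaving out control 2 gave -0.14, irradiated 1 gave -0.11 and irradiated 2 gave -0.16. Without Rps3a1 the paralogs' median was -0.24, and -0.00094 after quantile normalization. The paralogs were dimmer, with a median level of 3.55 to 4.45 over the arrays. It was 6.14 to 6.82 for the large subunit and 6.28 to 7.08 for the small. The part of signal in the paralogs' smaller median difference was not tested.

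**Figure D3:**
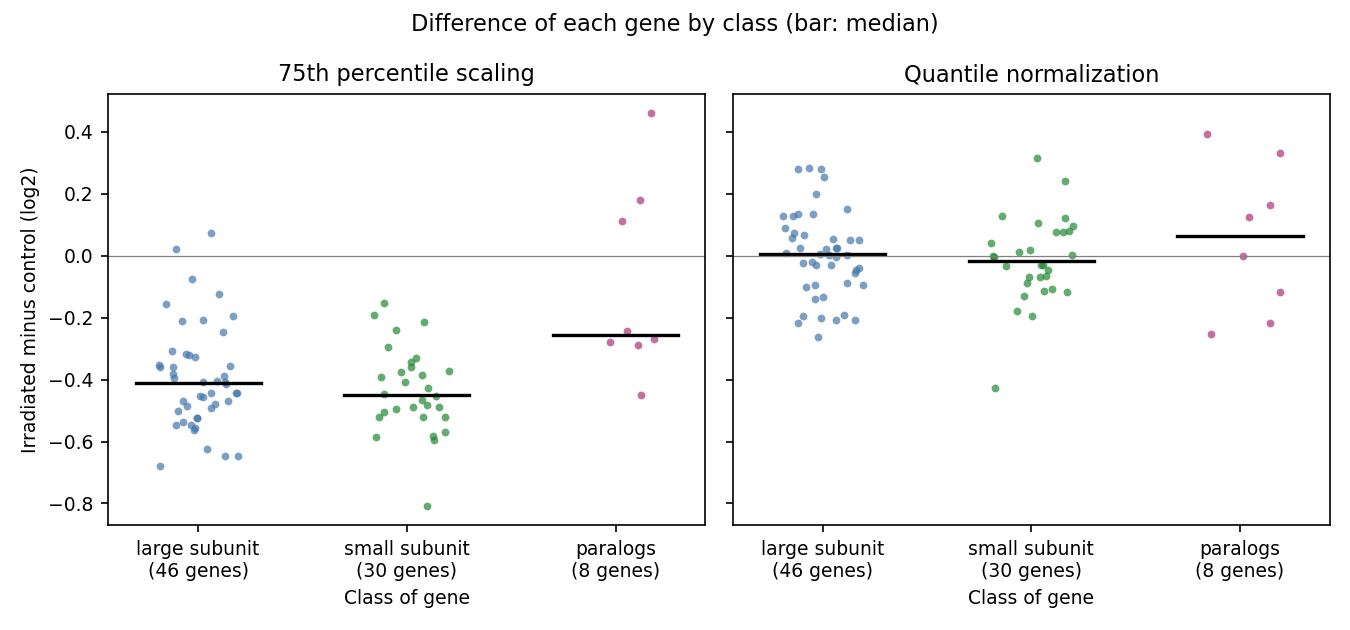
Irradiated minus control difference (vertical axis, log2) of each of 46 large subunit genes, 30 small subunit genes and 8 paralogs (horizontal axis) under both normalizations, with bars at the median. On the left the bars of the subunits stand at -0.41 and -0.45 and that of the paralogs at -0.26, and on the right they stand between -0.02 and 0.06.

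Among large subunit proteins, Rpl41, a very short basic peptide, gave 9.12, 8.78 and 8.32 in the controls and 7.88, 7.93 and 8.39 in the irradiated cultures, in the order of their numbers. Irradiated 3 reached into the control range. The difference was -0.68 with a 95% interval from -1.33 to -0.03 (limma, adjusted p = 0.52), and -0.14 after quantile normalization. Rpl37a, which folds around a zinc ion, gave 8.21, 7.93 and 7.56 in the controls and 7.15, 7.12 and 7.56 in the irradiated cultures. Its difference was -0.62, from -1.21 to -0.04 (limma, adjusted p = 0.52), and -0.13 after quantile normalization. The other large subunit genes with small p or large difference included Rpl29 (-0.56), Rpl13 (-0.53) and Rpl28 (-0.65). After quantile normalization they stood at -0.09, -0.10 and -0.22.

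The acidic proteins of the stalk, Rplp0, Rplp1 and Rplp2, bring the elongation factors to the ribosome. Rplp0 gave 6.15, 6.58 and 6.28 in the controls and 5.80, 6.17 and 6.29 in the irradiated cultures, so the groups overlapped. Its difference was -0.24 ± 0.23 (SE), and those of Rplp1 and Rplp2 were -0.44 and -0.36. After quantile normalization all 3 turned to the other side, at 0.13, 0.06 and 0.13. Rpl10, which joins the large subunit late in its maturation, differed by -0.47, and by 0.02 after quantile normalization. Rpl11 and Rpl5 together carry a small ribosomal RNA into the large subunit and, when free, bind Mdm2. They differed by -0.40 and 0.02, and after quantile normalization by 0.07 and 0.25. Rpl13a, also known as part of an interferon-induced complex that silences messengers, differed by -0.44, and by -0.02 after quantile normalization.

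Among small subunit proteins, Rps15, which sits in the head of the subunit, had the lowest difference of the family. Its probe gave 7.12, 6.35 and 5.93 in the controls and 5.46, 5.37 and 6.14 in the irradiated cultures. Irradiated 3 lay between control 2 and control 3. The difference was -0.81, with an interval from -1.65 to 0.04 (limma, adjusted p = 0.52), and after quantile normalization it was -0.43, from -1.08 to 0.23. Without control 1 the difference was -0.48. The probe lies at chr10:79756714-79756773 (build mm9, plus strand), and 55.0% of its bases are G or C. It is shown as the lowest member and because control 1 deviated there by 1.06 from the gene's mean, the highest deviation of the 86 genes on that array.

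Rps15 A_55_P2722834: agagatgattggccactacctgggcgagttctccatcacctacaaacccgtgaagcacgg

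Rps26, which lines the channel where the messenger leaves the ribosome, gave 6.81, 6.82 and 6.43 in the controls and 5.85, 6.01 and 6.44 in the irradiated cultures. Its difference was -0.59, from -1.16 to -0.02 (limma, adjusted p = 0.52). Rpsa, the laminin receptor precursor that also stabilises the small subunit, differed by -0.59, from -1.18 to -0.0035 (limma, adjusted p = 0.52). After quantile normalization Rps26 stood at -0.18 and Rpsa at -0.11. In both, irradiated 3 lay above control 3, so the groups overlapped. Rps9 differed by -0.52, and by -0.13 after quantile normalization.

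Rps6, the substrate of the S6 kinases downstream of mTOR, gave 6.04, 5.85 and 5.58 in the controls and 5.44, 5.49 and 5.55 in the irradiated cultures. Every irradiated array lay below every control array. The difference was -0.33 ± 0.21 (SE), and 0.01 after quantile normalization. Rps27a, made as a fusion with ubiquitin, differed by -0.37, and by 0.10 after quantile normalization. Rps19, whose human counterpart is often mutated in Diamond-Blackfan anaemia, differed by -0.48, and by -0.0013 after it. Over the 86 genes, the sign of the difference was not the same under the 2 normalizations for 37.

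A difference above 0 was found for 5 genes under 75th percentile scaling, all 5 also after quantile normalization, and Rpl5 turned to -0.04 under array median scaling: Rpl7l1 (0.46), Rpl39l (0.18), Rpl36al (0.11), Rpl37 (0.07) and Rpl5 (0.02). Rpl7l1, related to Rpl7, gave -2.17, -1.40 and -1.49 in the controls and -1.04, -0.92 and -1.72 in the irradiated cultures. Its arrays overlapped, and the interval ran from -0.27 to 1.20 (limma, adjusted p = 0.59). Without control 1 the values of Rpl39l, Rpl36al, Rpl37 and Rpl5 were -0.09, -0.27, -0.13 and -0.13, so they lay above 0 only with that array. Rpl5 was also below 0, at -0.011, without irradiated 2. The single probe of Rpl37 read between -3.74 and -2.92, far under the 75th percentile, while the probe of Rpl37rt, a copy of the same gene, read between 7.48 and 8.57.

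Each paralog was set beside its partner. Rpl22 and Rpl22l1 differed by -0.49 and -0.24. Rpl7 and Rpl7l1 differed by -0.08 and 0.46, Rpl39 and Rpl39l by -0.16 and 0.18, and Rpl36a and its retroposed partner Rpl36al by -0.39 and 0.11. Rps27 and Rps27l, the latter known as a p53 target, differed by -0.50 and -0.45, and Rps4x and Rps4l by -0.37 and -0.29. Single arrays moved some of these values by over 1.5 times. Rpl22 was -0.27 and Rps27l -0.26 without control 1, Rpl22l1 -0.05 without irradiated 2 and Rps4l -0.10 without control 2. None of these genes had an adjusted p under 0.05 in limma's test, and differences between partners were not tested. After quantile normalization Rpl7 and Rpl7l1 stood at 0.28 and 0.39, and Rpl39 and Rpl39l at 0.28 and 0.16. Rpl22 and Rpl22l1 stood at -0.26 and -0.00094, and Rpl36a and Rpl36al at -0.0054 and 0.33. For Rpl7, Rpl39 and Rpl36al only the brightest probe was above 0 on this scale. The other kept probes of Rpl7 stood at -0.06 and -0.28, those of Rpl39 between -0.36 and -0.11, and that of Rpl36al at -0.03. Rps27 and Rps27l stood at -0.07 and -0.22, and Rps4x and Rps4l at -0.03 and -0.12. Both kept probes of Rps27 are placed on chromosome 9, while the gene lies on chromosome 3.

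Rpl3 and its striated muscle form Rpl3l are probed at homologous stretches, and both sequences are shown so that the basis for telling them apart can be seen. The first 27 bases of the Rpl3 probe align with the last 27 of the Rpl3l probe without a gap, and 20 of these are the same. Capitals mark the 7 that are not. The Rpl3 probe lies at chr15:79908489-79908772 (minus strand) and the Rpl3l probe at chr17:24872413-24872681 (plus strand) of build mm9. Each spans more genome than its 60 bases.

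Rpl3 A_55_P2030802: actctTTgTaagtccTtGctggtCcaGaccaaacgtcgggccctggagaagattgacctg
Rpl3l A_51_P243123: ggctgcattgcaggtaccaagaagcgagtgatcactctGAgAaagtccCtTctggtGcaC

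The Rpl3 probe read between 5.80 and 6.67 and the Rpl3l probe between -5.18 and -4.42 over the 6 arrays. For these probes the differences were -0.42 for Rpl3 and -0.27 for Rpl3l, and after quantile normalization -0.04 and -0.25. For Rpl3l the arrays of the groups overlapped.

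Probes of one gene did not always read alike. Of 60 genes with several kept probes, 46 had all probes below 0, Rpl5 had both above, and 13 were mixed. The median range within a gene was 0.20. The widest ranges were those of Rps12, from -0.45 to 1.40, Rps9, from -0.52 to 0.75, and Rpl13, from -0.54 to 0.66. On quantile-normalized values control 1 deviated from the mean of the highest Rps12 probe by -2.35. For the highest probes of Rps9 and Rpl13 it deviated by -1.03 and -0.51. Rps19 was mixed only through a probe not detected in the controls, and its other probes ran from -0.66 to -0.41. In these 4 genes the highest probe was dim, at a mean signal below the 75th percentile, and it targets a transcript without a curated messenger accession. The dim probe of Rps19 gave -6.70, -5.75 and -6.68 in the controls and -5.30, -5.36 and -5.51 in the irradiated cultures. It was well above background on 0 control and 3 irradiated arrays, and since the lowest detected signals of the control arrays reach its irradiated level, no fold is given. The dim probe of Rpl13 gave -4.52, -3.93 and -4.36 in the controls and -3.74, -3.38 and -3.70 in the irradiated cultures, and these did not overlap. Its difference was 0.66, or 0.62 after quantile normalization (limma, adjusted p = 0.52 with 75th percentile scaling). That of Rps9 was well above background on 1 of 3 control arrays and differed by 0.75, or 0.80 after quantile normalization. These are the 3 probes with an unadjusted p under 0.05 in limma's test after quantile normalization, and for those of Rps19 and Rps9 the test sets the irradiated arrays against control signals of which 0 of 3 and 1 of 3 were well above background.

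**Figure D4:**
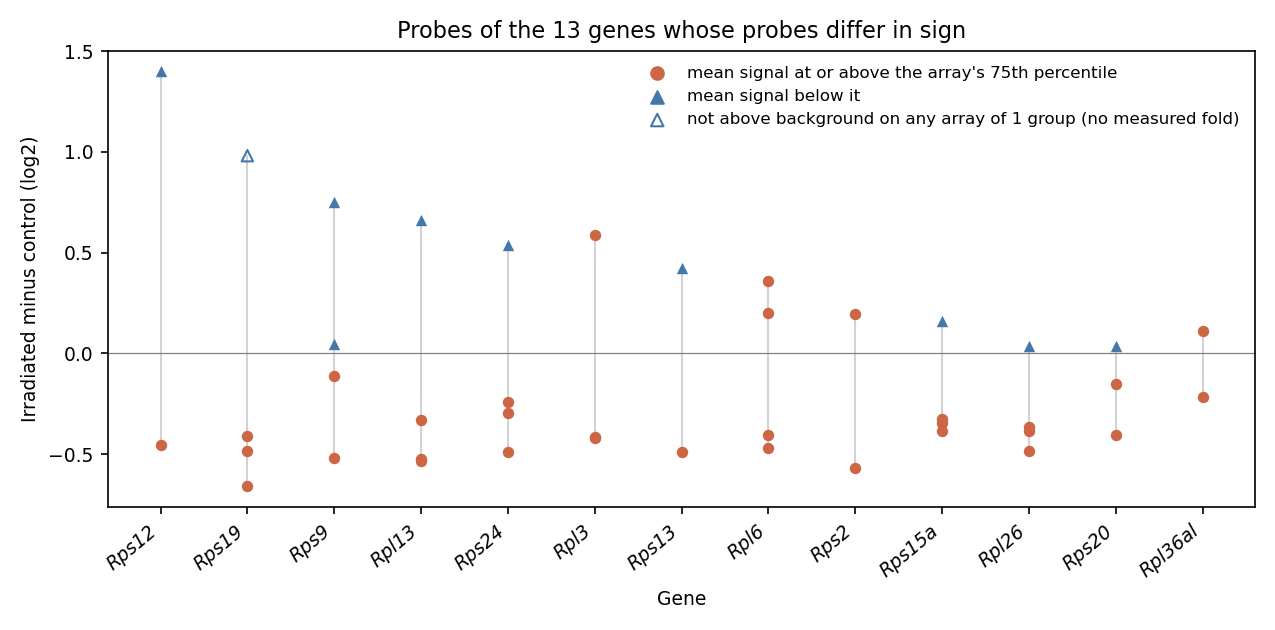
Irradiated minus control difference (vertical axis, log2, 75th percentile scaling) of every kept probe of the 13 genes (horizontal axis) whose probes differ in sign. Circles are probes with a mean signal at or above the 75th percentile and triangles are dimmer ones, the open one being the Rps19 probe detected on 0 control arrays, whose position is no measured fold; the highest value, 1.40, is a dim probe of Rps12.

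Rpl3, Rps2 and Rpl6 showed such a split between probes in the same messenger. Their sequences are shown because the probe nearer the 5′ end and the one nearer the 3′ end gave differences of opposite sign. In Rpl36al, not shown, the split ran the other way, with -0.22 at base 85 and 0.11 at base 446. The Rpl3 probes begin at bases 159 and 1218 of the messenger, those of Rps2 at 354 and 807, and those of Rpl6 at 322 and 819.

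Rpl3 A_66_P126077: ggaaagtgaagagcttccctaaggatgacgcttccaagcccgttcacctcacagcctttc
Rpl3 A_55_P2913650: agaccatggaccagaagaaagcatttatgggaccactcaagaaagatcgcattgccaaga
Rps2 A_55_P2048454: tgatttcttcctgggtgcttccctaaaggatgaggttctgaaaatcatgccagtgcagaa
Rps2 A_55_P2070347: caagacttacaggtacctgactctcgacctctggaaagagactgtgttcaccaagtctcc
Rpl6 A_55_P2786214: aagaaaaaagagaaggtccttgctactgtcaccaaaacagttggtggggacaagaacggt
Rpl6 A_55_P1990859: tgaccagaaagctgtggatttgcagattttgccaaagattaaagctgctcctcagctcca

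In build mm9 the Rpl3 probes lie at chr15:79912877-79912936 and chr15:79908295-79908445, on the minus strand. The Rpl6 probes lie at chr5:121655775-121655834 and chr5:121658820-121658879, on the plus strand. The first Rps2 probe lies at chr17:24857583-24857642, but the second is placed at chr17:42864841-42864900, so it matches a copy outside the gene. Its start is 18005842 bases from that of the nearest other Rps2 probe on the array. A further 7 probes, of Rpl13, Rpl36, Rps27 and Rps29, are placed on another chromosome than their gene. Signal from such near-identical copies cannot be told apart from that of the gene.

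The upstream Rpl3 probe gave 1.84, 3.37 and 3.59 in the controls and 3.52, 3.75 and 3.31 in the irradiated cultures. Control 1 was the lowest. The downstream probe gave 7.17, 6.89 and 6.72 in the controls and 6.44, 6.39 and 6.71 in the irradiated cultures. The differences were 0.59 and -0.42 (limma, unadjusted p = 0.23 and 0.099). For Rps2 they were 0.20 and -0.57, and for Rpl6 0.20 and -0.41, again with the lowest upstream value on control 1. On quantile-normalized values, the upstream minus downstream distance on control 1 was lower than the mean of controls 2 and 3 by a log2 value of -1.73 for Rpl3, -1.0 for Rps2 and -0.89 for Rpl6. It was higher for Rpl39, by 1.30, and for Rpl36al, by 0.97. Over 35 member messengers with probes at least 100 bases apart the median was -0.06, beside -0.04 over 5321 messengers. The median irradiated minus control difference of the upstream minus downstream distance was -0.03 in these members, beside 0.07 over the 5321.

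Base composition ran with the difference. Across the 182 member probes, the share of G and C bases had a Spearman rho of -0.29 with the difference, and of -0.36 after quantile normalization. Over all 40552 kept probes these were -0.32 and -0.33. The points share 6 arrays and their depth, so the values are given as description. With the deviation of control 1 from the probe's mean, the rho was 0.34 in members and 0.35 over all probes, while over the other 5 arrays it lay between -0.28 and 0.07 in members. The 59 member probes under 45% G and C had a median quantile-normalized difference of 0.0021, the 60 at 45.0% had -0.02, and the 63 above had -0.11. Under 75th percentile scaling the same groups had -0.35, -0.34 and -0.46. The part of base composition in the family's difference was not tested.

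**Figure D5:**
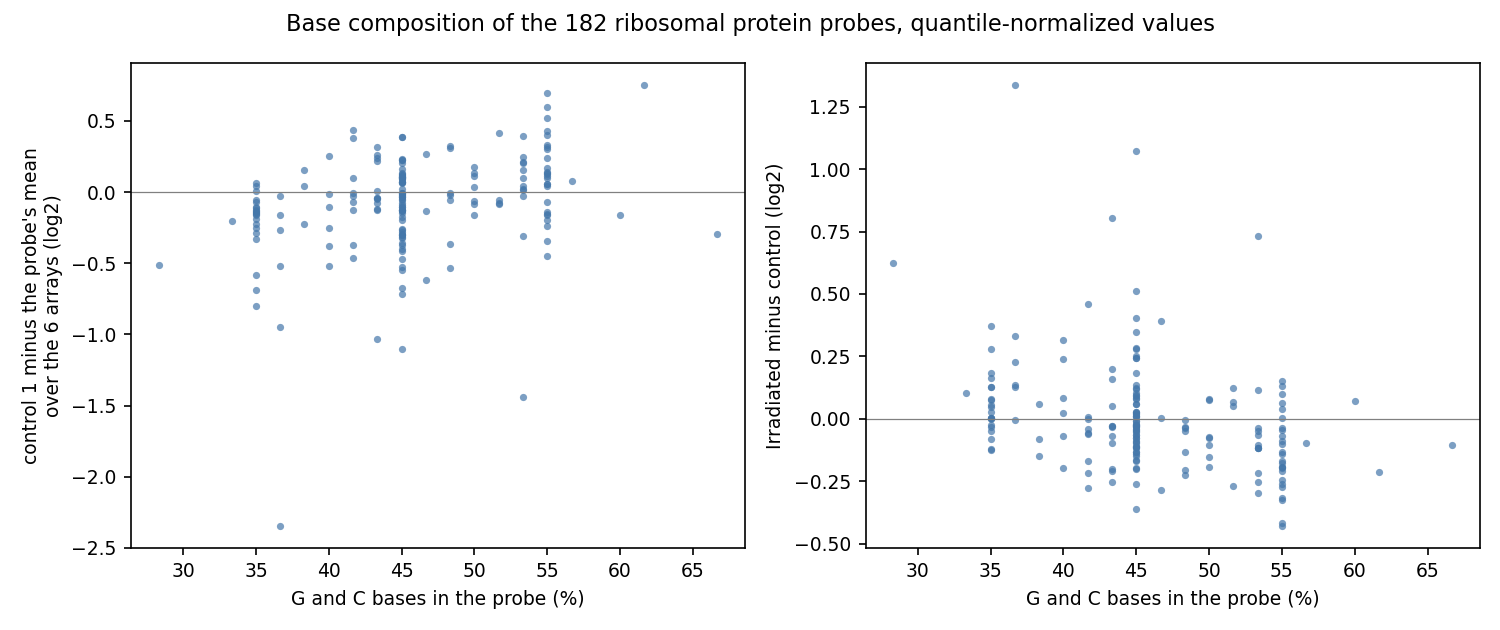
Share of G and C bases (horizontal axis, percent) of 182 ribosomal protein probes against the deviation of control 1 from the probe's mean over 6 arrays (left) and against the irradiated minus control difference (right), both as quantile-normalized log2 values. The left cloud rises to the right (rho 0.34) and the right cloud descends (rho -0.36).

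The starts of the genes were read for the pyrimidine tract. RefSeq promoter windows of build GRCm38.p6 matched 66 of the 87 genes. A run of at least 8 bases that are each C or T, within 30 bases before to 30 after the start on the transcript strand, was found in 35 of the 66, or 53.0%, beside 25.8% of 27025 genes and 27.5% of 69 mitochondrial ribosomal genes. The letters CCGGAAG on either strand of the 300 base window were present in 26, or 39.4%, beside 9.93% of all genes and 37.7% of the mitochondrial ribosomal genes. Windows of 30 bases around 5 starts show the tract, in capitals, close to the first transcribed base, which is the 11th letter.

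Rps6: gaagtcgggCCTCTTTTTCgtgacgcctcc
Rpl28: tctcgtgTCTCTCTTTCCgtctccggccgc
Rplp2: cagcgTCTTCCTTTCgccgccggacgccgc
Rps26: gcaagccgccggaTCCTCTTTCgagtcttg
Rps18: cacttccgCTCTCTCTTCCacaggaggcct

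They lie at chr4:86857348-86857377 (minus strand), chr7:4792955-4792984 (plus), chr7:141447641-141447670 (plus), chr10:128626487-128626516 (minus) and chr17:33955646-33955675 (minus). The 35 genes with a tract had a median difference of -0.44, with 33 below 0, and the 30 kept genes without one had -0.44, with 27 below 0. After quantile normalization the medians were 0.0036 and -0.04. A tract in these letters is a description of the sequence, and its use in these cells was not measured.

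Other genes of the translation pathway were read from lists. Among 3 genes that encode ribosomal proteins under other names, Fau, which makes a fusion with a ubiquitin-like protein, differed by -0.61, and by -0.11 after quantile normalization. Gnb2l1, the scaffold protein of the small subunit, differed by -0.32, and by 0.10 after quantile normalization. The median of the 3 genes was -0.61, beside -0.05 over all probes. The 10 genes of the elongation factor list had a median of -0.27, with 8 below 0. In this list Eif5a stood at -0.52. Tpt1, which is listed there but is not itself an elongation factor, stood at -0.40, or 0.06 after quantile normalization. The 28 initiation factor genes had -0.14, with 24 below 0, and Eif3k and Eif6 stood at -0.47 and -0.62. After quantile normalization these 3 medians were -0.11, 0.07 and 0.09. No gene of these 3 lists had an unadjusted p under 0.05 in limma's test in either direction, and 0 genes of any list here had an adjusted p under 0.05.

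Of 39 ribosome assembly genes, 26 lay below 0 and the median was -0.10, or 0.03 after quantile normalization. Nop14, needed to mature the small subunit RNA, was the 1 gene of the 39 with an unadjusted p under 0.05, beside 4.02% of all probes in the higher direction. It differed by 0.81, or 0.74 after quantile normalization, while Bop1, of the large subunit path, differed by -0.44. Of 16 genes of RNA polymerase I and its factors, 11 lay below 0 and the median was -0.09, or 0.04 after quantile normalization. Ubtf, which opens ribosomal DNA for transcription, differed by -0.59 with an unadjusted p of 0.04 (limma, adjusted p = 0.52). It was the 1 gene of the 16 lower at an unadjusted p under 0.05, beside 4.99% of all probes. Polr2l, shared by the polymerases, differed by -0.43. Of 20 genes of mTOR signalling and Myc, 12 lay below 0 and the median was -0.05, or 0.07 after quantile normalization. Rps6kb2, an S6 kinase, gave -3.18, -2.87 and -2.87 in the controls and -2.31, -2.14 and -2.61 in the irradiated cultures. Its probe lay below the 75th percentile on every array, and its groups did not overlap. In this list the groups did not overlap for 1 gene in the higher direction, beside 5.77% of all probes, and for 2 in the lower, beside 9.71%. Rps6kb2 differed by 0.62, or 0.54 after quantile normalization, while Max differed by -0.34.

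Values of the respiratory chain and of mitochondrial ribosomes are set beside these. The 81 nuclear genes of the respiratory chain had a median difference of -0.41, with 78 below 0 and 4 lower at an unadjusted p under 0.05, beside 4.99% of all probes. Ndufb9 (-0.59) and Uqcr11 (-0.64) had the smallest p. The 77 mitochondrial ribosomal genes had -0.22, with 66 below 0. Of these Mrpl57 (-0.59) was lower at an unadjusted p under 0.05, and Mrpl20 (-0.48) had the next smallest p. After quantile normalization both medians were -0.03.

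Each listed marker of the cells a cortical culture can hold had a kept probe. The summed linear signal of 12 neuron markers, relative to the 75th percentile, was 403 to 440 in the controls and 283 to 434 in the irradiated cultures. It was 165 to 465 against 160 to 331 for 8 astrocyte markers, 12.6 to 46.4 against 15.6 to 45.8 for 10 microglia markers, 75.3 to 172 against 76.5 to 159 for 10 oligodendrocyte markers and 6.94 to 17.1 against 7.44 to 16.3 for 10 markers of dividing cells. The ranges of the groups overlapped for each list. In both groups the culture numbered 1 had the highest sum for every list except neurons, where it had the lowest. By number, the microglia sums were 46.4, 18.1 and 12.6 in the controls and 45.8, 16.6 and 15.6 in the irradiated cultures. The median differences of the lists, in the order first given, were -0.06, -0.18, 0.20, -0.01 and 0.05, and 0.08, 0.01, 0.29, 0.18 and 0.11 after quantile normalization. The genes with the smallest p were Tubb3 (-0.67) and Syn1 (-0.56) in neurons, Aldoc (-0.41, or 0.06 after quantile normalization) and S100b (-0.24) in astrocytes, Itgam (0.18) and Cd68 (-0.45) in microglia, Mog (-0.39) and Olig2 (0.21) in oligodendrocytes and Aurkb (0.42) and Cdk1 (0.53) in dividing cells. In such mixed cultures, fewer cells of a type and less RNA per cell cannot be told apart, and the part of cell makeup in the family's values was not tested.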

How the data were processed

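Per the labels, RNA of each culture was read on 1 array. Each array's file holds linear intensity of spots, deposited by the authors and, per the submitters' processing notes, made with Agilent Feature Extraction (10.7.1.1). Per the file headers, probe positions are on build mm9. A second file deposited by the authors has log2 values with equal medians on all arrays, as quantile normalization gives; how it was made is not stated. Here the signal was taken to log2 without outlier spots, averaged per probe and set to the array's 75th percentile over non-control probes; 10 of 56605 probes lacked a value. Groups were tested over 40552 kept probes in R 4.3.3 with limma 3.58.1 and Benjamini-Hochberg adjustment, a fit also tested on simulated data. A gene was read from its kept probe with the highest mean. The number of arrays limits the precision. Members and lists were chosen with earlier results of these data known. The named genes are the 8 with the smallest p, the 4 with the largest difference each way, those fixed by role, paralogs with partners, the 4 with the widest range over probes and, of each list, the 2 with the smallest p; a few of these are not reported here. Alternatives were other normalizations, background correction and filters, outlier spots kept, the mean over a gene's probes, a replicate block and leaving out arrays.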

Additional observations from a re-analysis of the deposited data

How the results depend on the processing

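Array median scaling gave 31 lower member probes at an unadjusted p under 0.05. It turned the sign of Rpl5 (-0.036). The deposited log2 table gave 4 probes of the array past an adjusted p of 0.05, 0 lower member probes at an unadjusted p under 0.05, a median of -0.031 over member probes, 0.00093 over genes, 50% of genes below 0, 0.0072 for the large subunit, -0.015 for the small subunit, 0.063 for paralogs, 0.069 for elongation factors, 0.091 for initiation factors, -0.11 for ribosomal proteins under other names and -0.027 for the respiratory chain. It turned the sign of Rplp0 (0.14), Rplp1 (0.059), Rplp2 (0.13), Rps6 (0.012), Rpl10 (0.025), Rpl11 (0.069), Rps27a (0.098), Rps19 (0.0020), Rpl7 (0.28), Rpl3 (0.0075), Rpl39 (0.28), Rps12 (0.020), Aldoc (0.058) and Tpt1 (0.059). No filter on dim probes gave 2 lower member probes at an unadjusted p under 0.05. Normexp gave 27 lower member probes at an unadjusted p under 0.05 and 0 higher ones. It turned the sign of Rpl39l (-0.35), Rpl37 (-0.27) and Rpl7 (0.019). Normexp with quantile normalization gave 1 lower member probe at an unadjusted p under 0.05, 0 higher ones, a median of -0.033 over member probes, 0.0019 over genes, 48.84% of genes below 0, 0.0053 for the large subunit, -0.018 for the small subunit and 0.054 for paralogs. It turned the sign of Rplp0 (0.12), Rplp1 (0.058), Rplp2 (0.14), Rps6 (0.0043), Rpl10 (0.025), Rpl11 (0.068), Rps27a (0.083), Rps19 (0.00060), Rpl22l1 (0.0034), Rpl7 (0.30), Rpl3 (0.016), Rpl39 (0.27) and Rps12 (0.018). Quantile normalization gave 4 probes of the array past an adjusted p of 0.05, 0 lower member probes at an unadjusted p under 0.05, a median of -0.031 over member probes, -0.0011 over genes, 51.16% of genes below 0, 0.0053 for the large subunit, -0.016 for the small subunit, 0.063 for paralogs, 0.069 for elongation factors, 0.091 for initiation factors, -0.11 for ribosomal proteins under other names and -0.027 for the respiratory chain. It turned the sign of Rplp0 (0.13), Rplp1 (0.055), Rplp2 (0.13), Rps6 (0.011), Rpl10 (0.024), Rpl11 (0.068), Rps27a (0.096), Rpl7 (0.28), Rpl3 (0.0071), Rpl39 (0.28), Rps12 (0.020), Aldoc (0.058) and Tpt1 (0.059). The replicate block gave 0 lower member probes at an unadjusted p under 0.05. The replicate block with quantile normalization gave the same medians and gene values as quantile normalization alone. Requiring all 6 arrays well above background gave 26 lower member probes at an unadjusted p under 0.05. Leaving out both arrays numbered 1 gave 0 lower member probes at an unadjusted p under 0.05, 0 higher ones, 0 probes of the array past an adjusted p of 0.05 on the quantile scale and -0.072 for paralogs on the quantile scale. It turned the sign of Rpl39l (-0.017), Rpl36al (-0.18), Rpl37 (-0.017) and Rpl5 (-0.12). The mean over a gene's probes turned the sign of Rps9 (0.040), Rpl36al (-0.052) and Rps12 (0.47). Over single arrays left out in turn there were 0 to 59 lower member probes at an unadjusted p under 0.05, 1 to 5 higher ones, 0 probes of the array past an adjusted p of 0.05 on the quantile scale, 0 to 1 lower member probes at an unadjusted p under 0.05 on the quantile scale, 1 to 5 higher ones on the quantile scale, -0.056 to 0.15 for paralogs on the quantile scale, Rpl39l (-0.094 to 0.32), Rpl36al (-0.27 to 0.31), Rpl37 (-0.13 to 0.27), Rpl5 (-0.13 to 0.11) and Rpl39 (-0.41 to 0.052). Leaving out arrays on the quantile scale was chosen after seeing the data. Deviations of same-numbered arrays correlated over probes at 0.46, 0.33 and 0.086, and those of arrays with unequal numbers at -0.46 to 0.36. The labels do not state a pairing and these values do not settle it, so the main fit was unpaired. With the replicate block 0 probes were called. Of 795 values of 63 named genes, 727 kept their sign. The causes were not tested. Signals near background limit the dim probes.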
